A study of Rattus norvegicus with 12 samples.

Results

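Glycolysis was followed through the renal cortex at the level of RNA for 10 enzyme genes, Hk1, Hk2, Gpi, Pfkl, Pfkp, Aldoa, Pgk1, Eno1, Ldha and Ldhb. They were taken by name from the normalized count table, in which all 10 were present among 13151 genes, and all 10 passed the filter that left 11633 genes for testing. All rats were male and 32 weeks old. ZL rats were Zucker lean controls, ZF rats were obese Zucker fatty rats, which lack a working leptin receptor, and ZF-SGLT2i rats were Zucker fatty rats given the sodium-glucose cotransporter 2 inhibitor canagliflozin at 10 mg/kg/day, begun at 24 weeks and continued for 8 weeks. Each group held 4 rats, so a test measured the spread between animals. ZF rats served both as the obese comparison to ZL and as the untreated comparison to ZF-SGLT2i. The paper describes lean rats only in a study with kidney wedge biopsies before 32 weeks. Treated rats came from a separately purchased set of Zucker fatty rats, for which it describes no biopsy. A figure legend gives the sequenced ZF rats the name of the untreated group of that set. Where cohort and biopsy differed from ZL, they cannot be told apart from the group. Between 8824980 and 12210257 reads per rat fell on genes. Values are read counts scaled to the library with TMM factors (CPM), called value below, and a gene was called when its adjusted p from limma, taken over all genes tested, was under 0.05. Values of single rats are given in the order of the rat numbers, which were 1, 2, 3 and 4 for ZL, 2, 3, 4 and 5 for ZF, and 2, 3, 4 and 6 for ZF-SGLT2i.

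Glycolysis splits glucose into pyruvate in the cytosol. Hexokinases trap glucose as glucose 6-phosphate, glucose 6-phosphate isomerase and phosphofructokinase prepare it for cleavage by aldolase, and phosphoglycerate kinase and enolase act in the later steps that return ATP. Lactate dehydrogenase, built from A and B chains, then interconverts pyruvate and lactate. In the kidney, proximal tubule cells are known to take up lactate and to make glucose, while distal segments use more glucose. The RNA came from whole cortex, in which fewer cells of a type and less RNA per cell cannot be told apart.

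The start regions of 3 of these genes are shown because the results turn on them: Eno1 was the only gene of the 10 that was called, and the ratio of Ldha to Ldhb was the other measure in which groups did not overlap. The RefSeq promoter table, in build GRCr8, matched 9 of the 10 genes by symbol, with 13 start sites among them, and the 250 bases before each start were searched on both strands for ACGTG and GCGTG, cores of the hypoxia response element, and for the E-box CACGTG, which holds ACGTG on each strand. Capitals mark the matches, and a match on the opposite strand appears as its reverse complement. Windows are Ldha at chr1:106507842-106508091 on the plus strand, Ldhb at chr4:177177409-177177658 on the minus strand, and Eno1 at chr5:166002617-166002866 and chr5:166003111-166003360 on the plus strand.
Ldha: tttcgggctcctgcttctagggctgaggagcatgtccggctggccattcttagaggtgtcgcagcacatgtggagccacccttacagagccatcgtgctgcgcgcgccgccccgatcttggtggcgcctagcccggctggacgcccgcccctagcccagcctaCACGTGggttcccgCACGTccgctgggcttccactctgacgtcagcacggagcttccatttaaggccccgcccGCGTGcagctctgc
Ldhb: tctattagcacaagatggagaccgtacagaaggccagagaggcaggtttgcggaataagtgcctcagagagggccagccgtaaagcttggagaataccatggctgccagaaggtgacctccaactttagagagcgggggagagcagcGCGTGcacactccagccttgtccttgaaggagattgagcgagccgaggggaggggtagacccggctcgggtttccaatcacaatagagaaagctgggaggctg
Eno1 upstream start: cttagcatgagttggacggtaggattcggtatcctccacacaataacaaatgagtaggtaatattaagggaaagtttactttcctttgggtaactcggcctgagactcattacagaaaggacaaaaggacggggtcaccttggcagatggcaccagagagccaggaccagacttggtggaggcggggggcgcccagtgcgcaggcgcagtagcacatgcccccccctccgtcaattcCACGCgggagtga
Eno1 downstream start: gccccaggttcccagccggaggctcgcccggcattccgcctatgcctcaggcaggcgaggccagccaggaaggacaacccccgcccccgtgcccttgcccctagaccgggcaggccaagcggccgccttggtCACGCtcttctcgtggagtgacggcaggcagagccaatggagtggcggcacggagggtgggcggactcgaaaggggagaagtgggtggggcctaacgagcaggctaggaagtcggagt
The Ldha window held the E-box from 87 to 82 bases before the start, a further ACGTG core on the opposite strand from 73 to 69 bases before it and a GCGTG core from 14 to 10 bases before it. Ldhb held a single GCGTG core, from 103 to 99 bases before its start, and each Eno1 window held a single GCGTG core on the opposite strand. ACGTG or GCGTG was found in 8 of the 13 windows, which belong to 7 of the 9 genes, and 36.7% of all 33469 promoters held either core (16.6% ACGTG and 25.9% GCGTG). Of the 9 genes only Ldha held CACGTG, which was present in 5.59% of all promoters. These matches describe letters in a window and were not tested for binding.

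Few differences between the groups passed the test for the 10 genes. In ZF against ZL none was called in either direction, where 8.19% of all genes tested were called higher and 10.6% lower. Their median log2 fold change was -0.10, beside -0.0077 for all genes tested, and 9 of the 10 estimates were below 0, of which those of Hk1, Gpi and Aldoa lay above 0 after quantile normalization. In ZF-SGLT2i against ZF none was called, against a background of 1.39% higher and 1.75% lower, and the median was 0.02. In ZF-SGLT2i against ZL, Eno1 was called lower and no gene was called higher, beside 15% of all genes called lower and 12.4% called higher, and the median was -0.11. At an unadjusted p under 0.05, the limma fit held 1, 1 and 2 of the 10 genes in these 3 comparisons in turn, where the shares of all genes tested were 33.1%, 17.2% and 39.3%. Groups without overlapping values made up 19% of genes for ZF and ZL, 11.2% for treated and untreated ZF rats and 28% for ZF-SGLT2i and ZL, and of the 10 genes only Eno1, in the last comparison, was among them.

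ZL rat 4 was low for most of these genes. Its 10 values summed to 3704, where the other ZL rats summed to 4669, 4699 and 4584, and it was the lowest lean rat for 6 of the 10 genes and the highest for 2, Hk2 and Pfkl. Its gap to the other lean rats passed Dixon's critical value for none of the 10 genes. Without it, Pfkp, Pgk1 and Ldhb were called lower in ZF than in ZL, with log2 fold changes of -0.30, -0.29 and -0.49 and adjusted p-values from limma of 0.041, 0.046 and 0.0070. The count of the 10 genes called lower in ZF was therefore 0 with this rat and 3 without it, where 8.57% of all genes tested were called lower in the fit without it.

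**Figure D1:**
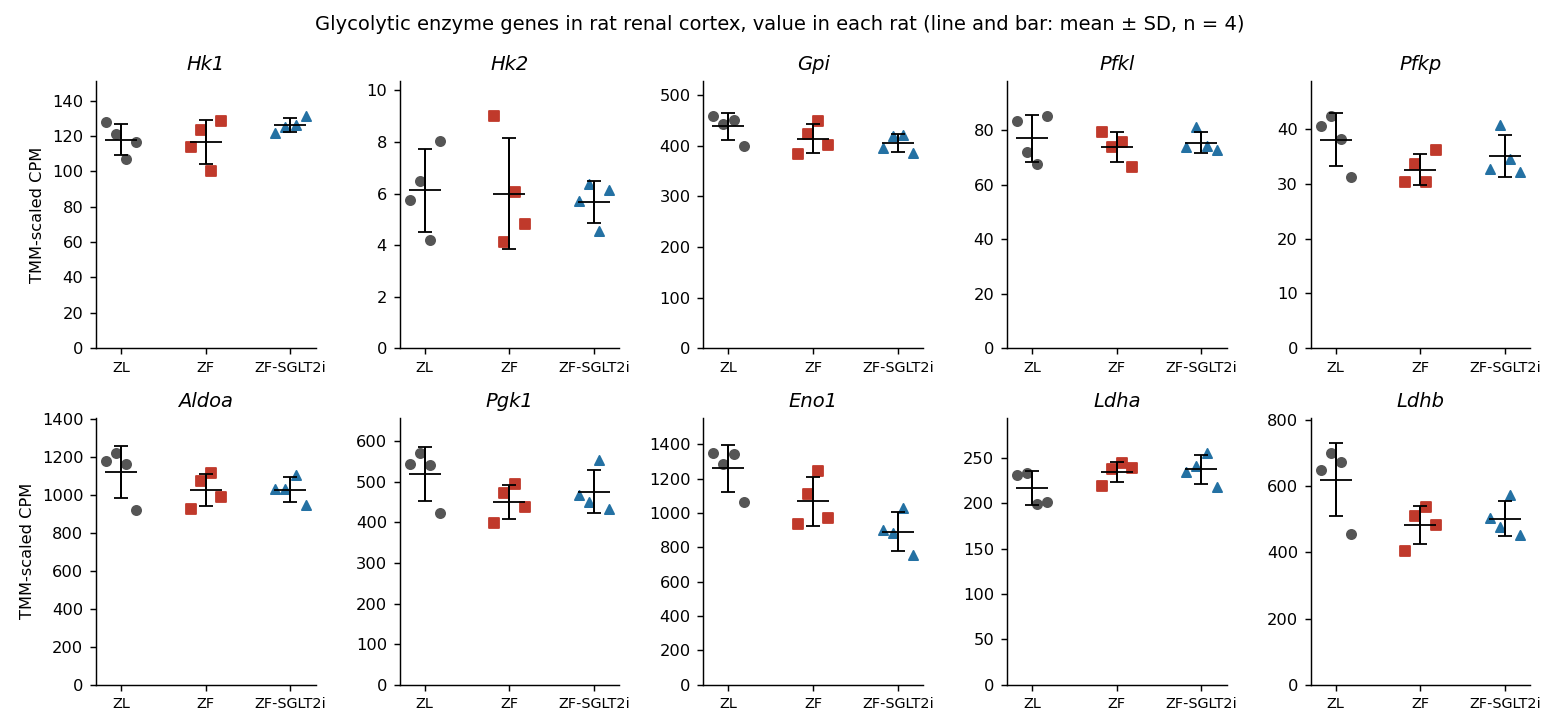
Value (TMM-scaled CPM, axis from 0) of each of the 10 genes in each rat, with ZL as circles, ZF as squares and ZF-SGLT2i as triangles; the long line is the group mean and the bar its SD (n = 4). The groups overlapped for every gene except Eno1, whose ZF-SGLT2i rats, at 754 to 1027, all lay below the ZL rats, at 1062 to 1352.

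Hexokinase 1, the broadly expressed enzyme of the first step, had group means of 118, 117 and 126 in lean, obese and treated rats. Hk1 read 128, 121, 107 and 116 in ZL rats, 114, 124, 100.2 and 129 in ZF rats, and 122, 125, 126 and 131 in ZF-SGLT2i. The groups overlapped, and the treated rats lay closest together, with an SD of 3.98 beside 8.86 in ZL and 12.6 in ZF. The log2 fold change was -0.02 ± 0.08 (SE) in ZF against ZL, 0.12 ± 0.08 in ZF-SGLT2i against ZF and 0.10 ± 0.08 in ZF-SGLT2i against ZL, with adjusted p-values from limma of 0.88, 0.46 and 0.37. Hexokinase 2, the insulin-responsive form of muscle and fat, rested on few reads, 37 to 94 per rat. Hk2 read 5.74, 6.50, 4.20 and 8.04 in ZL rats, 9.01, 4.11, 6.07 and 4.81 in ZF rats, and 5.71, 6.36, 4.53 and 6.13 in ZF-SGLT2i. The highest and the lowest of the 12 values were both ZF rats, the SD was 36.1% of the ZF mean, and no difference between groups was called (log2 fold changes -0.04, -0.03 and -0.07, each with an SE of 0.21). Counting error alone was 10.3% to 16.4% of a Hk2 value.

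Glucose 6-phosphate isomerase, encoded by Gpi, converts glucose 6-phosphate to fructose 6-phosphate. Gpi read 459, 444, 451 and 399.8 in ZL rats, 383, 424, 448 and 401 in ZF rats, and 396, 419.9, 421 and 385 in ZF-SGLT2i. Lean rats 1, 2 and 3 and ZF rat 4 made up the upper end, and the groups overlapped. The log2 fold changes of -0.08 ± 0.07, -0.03 ± 0.07 and -0.11 ± 0.07 (SE) had adjusted p-values from limma of 0.42, 0.87 and 0.23.

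Phosphofructokinase commits the sugar to glycolysis, and Pfkl and Pfkp encode its liver-type and platelet-type chains. Pfkl read 83.3, 72.0, 67.6 and 85.3 in ZL rats, 79.3, 73.8, 75.7 and 66.5 in ZF rats, and 73.7, 81.4, 74.2 and 72.8 in ZF-SGLT2i. The 3 group means, 77.0, 73.8 and 75.5, lay within 1 SD of each other. Pfkp read 40.5, 42.4, 38.1 and 31.3 in ZL rats, 30.3, 33.7, 30.3 and 36.1 in ZF rats, and 32.8, 40.7, 34.5 and 32.2 in ZF-SGLT2i. ZF rats lay at or below 36.1 while all ZL rats except rat 4 were at or above 38.1. The log2 fold change of Pfkp in ZF against ZL was -0.21 ± 0.10 (SE, adjusted p from limma 0.16), and it was 0.10 in ZF-SGLT2i against ZF and -0.11 in ZF-SGLT2i against ZL. For Pfkl it was -0.06, 0.03 and -0.02, with an SE of 0.08 in each comparison.

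Aldolase A, which cleaves fructose 1,6-bisphosphate, was read at 1177, 1222, 1163 and 921 in ZL rats, 925, 1073, 1113 and 991 in ZF rats, and 1033, 1029, 1103 and 944 in ZF-SGLT2i. Lean rats 1, 2 and 3 had the 3 highest of the 12 Aldoa values, and lean rat 4 had the lowest. Phosphoglycerate kinase 1, the first step that makes ATP, was read at 543, 572, 541 and 422 in ZL rats, 399.9, 473, 496 and 437 in ZF rats, and 467, 451, 554 and 433 in ZF-SGLT2i. For Pgk1, ZF-SGLT2i rat 4 lay among lean rats 1, 2 and 3, the other obese rats lay below these 3, and lean rat 4 lay in the ZF range. The log2 fold change of Aldoa was -0.12 ± 0.10 (SE) in ZF against ZL, 0.0044 in ZF-SGLT2i against ZF and -0.12 in ZF-SGLT2i against ZL. For Pgk1 it was -0.20 ± 0.10, 0.08 and -0.12 in the same order, and the lowest adjusted p from limma among these 6 values was 0.21.

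Enolase 1, which turns 2-phosphoglycerate into phosphoenolpyruvate, had the largest difference of the 10 genes. Eno1 read 1352, 1285, 1341 and 1062 in ZL rats, 936, 1112, 1248 and 974 in ZF rats, and 902, 881, 1027 and 754 in ZF-SGLT2i. All 4 treated rats lay below all 4 lean rats, and the ZF rats overlapped both groups. The group means were 1260 ± 135, 1067 ± 142 and 891 ± 112 (SD, n = 4). Eno1 was lower in ZF-SGLT2i than in ZL, with a log2 fold change of -0.50 ± 0.12 (SE) and an adjusted p of 0.0066 from limma, and an exact two-sided permutation test of the 8 rats gave 0.0286, the smallest p that 4 against 4 rats allow. The steps on either side of ZF were of like size and neither was called: -0.24 ± 0.12 in ZF against ZL (adjusted p from limma 0.17) and -0.26 ± 0.12 in ZF-SGLT2i against ZF (adjusted p from limma 0.27). Because ZF rats enter both steps, these are not independent of each other. The difference from ZL was -0.29 (adjusted p from limma 0.032) after quantile normalization. With the rat number as a replicate block it was -0.39 with an adjusted p of 0.11 from limma. The labels give the rat numbers no meaning. In the block fit ZL rat 1 and ZF-SGLT2i rat 6 did not enter the difference, since no other group holds their number. Its adjusted p was the highest of 22 alternatives, over which the adjusted p began at 0.00022. The share of reads on the ribosomal RNA genes Rn28s and Rn45s overlapped between all groups, and its highest values were in ZF-SGLT2i rats. It was 10.0%, 12.0%, 7.25% and 10.6% in ZL rats and 11.2%, 12.0%, 8.82% and 11.8% in ZF rats. In ZF-SGLT2i rats it was 12.0%, 14.3%, 11.5% and 15.2%. Its part in the Eno1 difference was not tested.

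**Figure D2:**
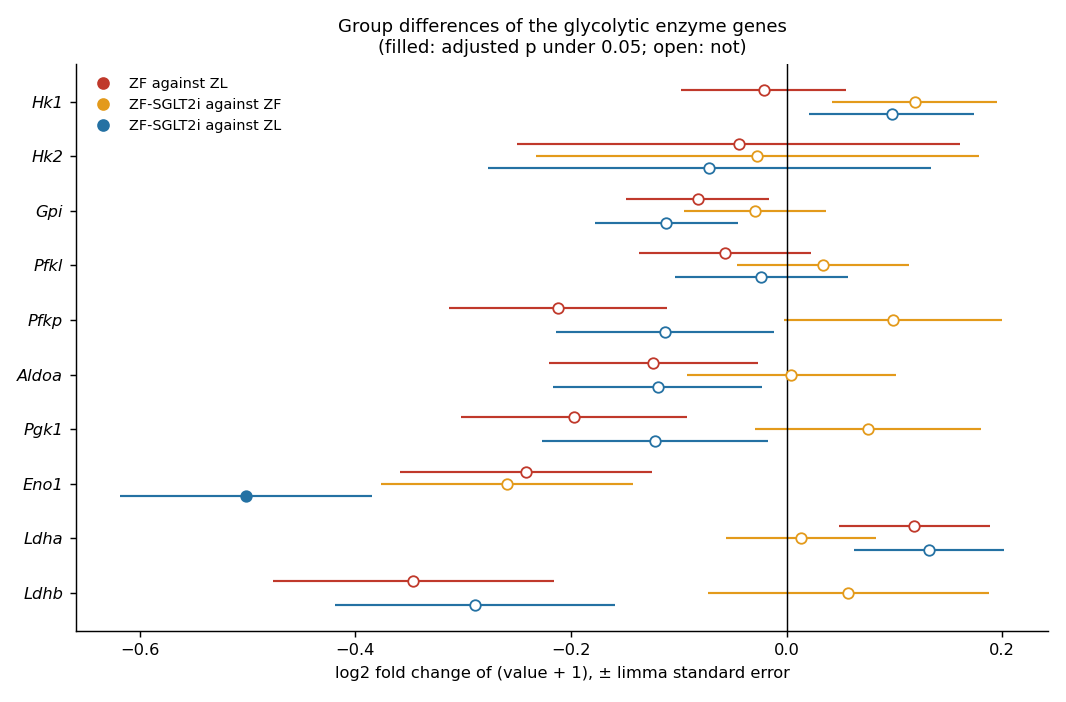
The log2 fold change of value + 1 (x axis) for each of the 10 genes in the 3 comparisons between groups; bars are the limma standard error and filled points had an adjusted p under 0.05. The one filled point is Eno1 in ZF-SGLT2i against ZL at -0.50, and Ldha lies above 0 where Ldhb lies below it in both comparisons with ZL.

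Lactate dehydrogenase is a tetramer, and its A chain, encoded by Ldha, is known for reducing pyruvate while the B chain, encoded by Ldhb, is typical of tissues that oxidize lactate. Ldha read 232, 234, 199.7 and 202 in ZL rats, 219, 238, 244 and 239 in ZF rats, and 235, 241, 256 and 218 in ZF-SGLT2i. In both obese groups 3 of 4 rats lay above every lean rat. Ldhb read 649, 701, 671 and 456 in ZL rats, 403, 510.1, 538 and 481 in ZF rats, and 503, 476, 574 and 453 in ZF-SGLT2i. Lean rats 1, 2 and 3 lay above all obese rats for Ldhb, and lean rat 4 lay among them. In ZF against ZL the log2 fold change was 0.12 ± 0.07 (SE) for Ldha (adjusted p from limma 0.26) and -0.35 ± 0.13 for Ldhb (adjusted p from limma 0.080). In ZF-SGLT2i against ZL it was 0.13 ± 0.07 for Ldha and -0.29 ± 0.13 for Ldhb, with adjusted p-values from limma of 0.18 and 0.12. In ZF-SGLT2i against ZF the 2 genes gave 0.01 ± 0.07 and 0.06 ± 0.13. Quantile normalization brought Ldha past the threshold in both comparisons with ZL (0.23 and 0.22, adjusted p from limma 0.028 and 0.023), in fits that called 9.48% and 13.8% of all genes tested higher. Array quality weights brought Ldhb past it in both comparisons with ZL (adjusted p from limma 0.026 and 0.029), in fits that called 13.8% and 18.8% of all genes tested lower, and so did leaving out ZL rat 4 (0.0070 and 0.0079). Without that rat, 8.57% of all genes tested were called lower in ZF against ZL. In ZF-SGLT2i against ZL, 2697 of 11633 genes were then called, 1211 of them higher. DESeq2 called Ldhb lower in ZF against ZL (adjusted p 0.042), beside 10.9% of all genes tested. Over the 22 alternatives the adjusted p of Ldhb ran from 0.0070 to 0.52 in ZF against ZL.

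The ratio of the Ldha value to the Ldhb value within a rat does not depend on the library scaling, and it separated the lean rats from the others. It was 0.357, 0.334, 0.297 and 0.443 in ZL rats, 0.543, 0.466, 0.454 and 0.497 in ZF rats, and 0.466, 0.506, 0.446 and 0.481 in ZF-SGLT2i. All 8 obese rats lay above all 4 lean rats, although the gap between lean rat 4 and the lowest treated rat was narrow. The mean log2 ratio was higher by 0.46 in ZF and by 0.42 in ZF-SGLT2i than in ZL. The exact two-sided permutation test gave p = 0.0286 in each, which became 0.129 when adjusted over the 9 ratio tests and so missed the threshold. This p is the smallest that 4 against 4 rats allow. With only these comparisons at that floor the adjusted p could not pass, so the miss decides nothing about the ratio. ZF-SGLT2i differed from ZF by -0.04 (exact permutation p = 0.6). Of the other isozyme pairs, Hk1 to Hk2 averaged 20.2 ± 4.74, 21.5 ± 8.27 and 22.6 ± 3.64 (SD, n = 4) in ZL, ZF and ZF-SGLT2i, and Pfkl to Pfkp averaged 2.06 ± 0.469, 2.29 ± 0.346 and 2.17 ± 0.121. These 2 ratios overlapped between all groups, with exact permutation p-values from 0.4 to 0.943.

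**Figure D3:**
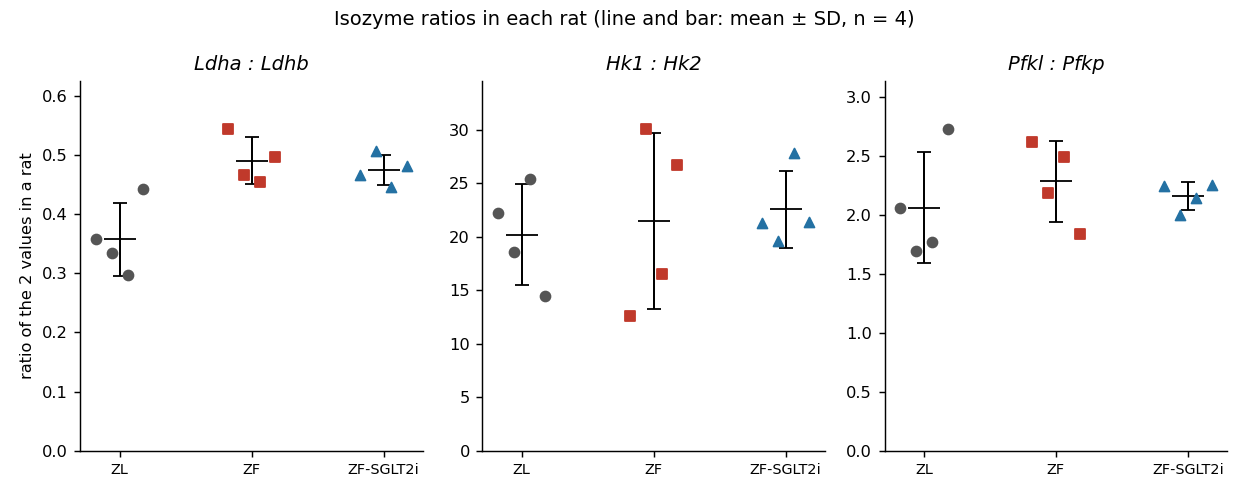
Ratio of the values of 2 isozyme genes within each rat (axis from 0), with the mean and SD of each group (n = 4). The Ldha to Ldhb ratio was 0.297 to 0.443 in ZL and 0.446 to 0.543 in the 8 Zucker fatty rats, while the Hk1 to Hk2 and Pfkl to Pfkp ratios overlapped.

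Inside each group several of these genes went up and down together from rat to rat, a pattern that was noticed after the values were seen. The orders given are those of Aldoa, so they were taken from these genes and Aldoa holds each by definition, and the shares of all genes are printed as a description only. In ZF the order from lowest to highest was rat 2, 5, 3 and 4 for Gpi, Aldoa, Pgk1, Eno1 and Ldhb, which is 5 of the 10 genes, while 5.73% of all genes tested had that order. Among the 805 genes with a mean value of at least 200 the share was 15.4%. In ZF-SGLT2i the order was rat 6, 3, 2 and 4 for Aldoa, Pgk1, Eno1 and Ldhb, an order that 7.84% of genes tested had and 19.1% of the highly expressed ones. In ZL the order of rat 4, 3, 1 and 2 was shared by Pfkp, Aldoa and Pgk1, an order that 4.76% of genes tested had and 9.94% of the highly expressed ones. After quantile normalization the ZF order was kept by 4 of its 5 genes, the ZF-SGLT2i order by 1 of 4 (Eno1) and the ZL order by 2 of 3 (Pfkp and Aldoa), and Ldha then had the ZL order too. Hk1, Hk2 and Pfkl followed none of these orders, and Ldha followed none before quantile normalization. For ZF-SGLT2i, rat 6 was the lowest rat for 8 of the 10 genes and rat 4 the highest for 6, and for ZF, rat 2 was the lowest for 7 and rat 4 the highest for 6. In ZF-SGLT2i the share of reads on Rn28s and Rn45s ranked from highest to lowest as rat 6, 3, 2 and 4, the reverse of the shared order, and in ZF it was lowest in rat 4 and highest in rat 3. In ZL the share went another way: it was highest in rat 2, at 12.0%, and that rat was the highest lean rat for 5 of the 10 genes. ZL rat 4, the lowest lean rat for 6 genes, had 10.6%. The part of this share in the shared orders was not tested.

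**Figure D4:**
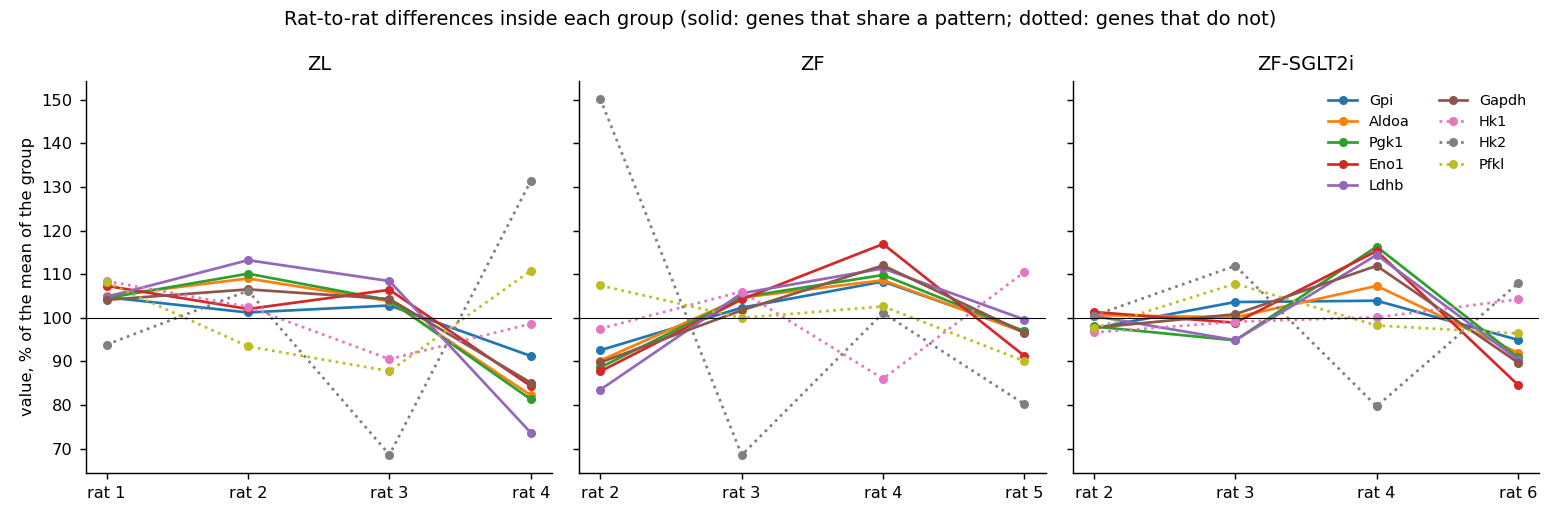
Value of each gene in each rat as a percentage of the mean of its group (y axis), with 1 panel per group; lines join the points of a gene and do not mark an order of rats. Gpi, Aldoa, Pgk1, Eno1, Ldhb and Gapdh (solid) were low together in ZL rat 4 and in ZF-SGLT2i rat 6 and high together in rat 4 of ZF and of ZF-SGLT2i, while Hk1, Hk2 and Pfkl (dotted) followed none of the orders shared by the others. Pfkp and Ldha are not drawn.

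The genes whose values were most like those of a member, among 8471 genes outside the lists with a mean of at least 10, differed between members. Over the 12 rats Eno1 was most like Clcn4 (Pearson r 0.975) and Pcbd1 (0.971), Gpi was most like Got2 (0.955), the mitochondrial aspartate aminotransferase, and Cs (0.947), citrate synthase, and Ldhb was most like Fabp3 (0.961), a fatty acid binding protein. Pgk1 and Aldoa shared Fam91a1 among their closest genes (0.957 and 0.930), and Pgk1 and Ldhb shared Atp6v1a, a subunit of the proton pump (0.930 and 0.951). For Hk1, Hk2, Pfkl, Pfkp and Ldha the closest genes, Cnksr1, Adam15, Aimp2, Got1 and Mpzl1, reached 0.899, 0.865, 0.883, 0.873 and 0.866. The points share libraries, groups and scaling, and each value is the highest of many, so it is given as a description.

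The remaining enzymes of the pathway were compared through a list of 20 genes, 15 of them in the table and 14 tested. In ZF against ZL only Pklr, the liver and red cell pyruvate kinase, was called, and in ZF-SGLT2i against ZF again only Pklr. Beside it, 8.19% of all genes tested were called higher in ZF against ZL and 1.75% lower in ZF-SGLT2i against ZF. In ZF-SGLT2i against ZL 3 of the 14 were called, all lower, beside 15% of all genes tested. Pklr read 75.2, 57.4, 67.0 and 75.2 in ZL rats, 93.3, 87.4, 96.4 and 85.4 in ZF rats, and 53.2, 55.9, 49.7 and 46.8 in ZF-SGLT2i. All ZF rats lay above all other rats, and all treated rats lay below all lean rats. Pklr rose in ZF (log2 fold change 0.40 ± 0.09 SE, adjusted p from limma 0.0071), was lower in ZF-SGLT2i than in ZF (-0.81 ± 0.09, adjusted p from limma 0.00040) and was lower than in ZL (-0.41 ± 0.09, adjusted p from limma 0.0040), and this last call was lost with the replicate block (-0.32, adjusted p from limma 0.070).

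Pgam1, the phosphoglycerate mutase that feeds Eno1, was lower in ZF-SGLT2i than in ZL, at 241, 238, 273 and 228 against 350.1, 356, 330.1 and 316 (log2 fold change -0.47 ± 0.08 SE, adjusted p from limma 0.0011). ZF rats read 268, 317, 346 and 288 for Pgam1 and overlapped both groups. Tpi1, triose phosphate isomerase, was lower by the same comparison at -0.23 ± 0.08 (adjusted p from limma 0.036), a call that was lost after quantile normalization (-0.08), with the replicate block (-0.16) and when any 1 of 6 rats was left out. Gapdh, often used as a reference gene, averaged 2104, 1992 and 2006 in the 3 groups, with log2 fold changes from ZL of -0.08 for ZF and -0.07 for ZF-SGLT2i that became 0.14 and 0.25 after quantile normalization. Pkm, the muscle-type pyruvate kinase, gave log2 fold changes of -0.11, 0.18 and 0.07 in the 3 comparisons in turn, none of them called.

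Among genes that control the flux or feed the pathway, 8 of 10 were tested. Called in the 3 comparisons in turn were 2, 0 and 3 of them. Of all genes tested, 8.19%, 1.39% and 12.4% were called higher and 10.6%, 1.75% and 15% lower. Pfkfb3, which makes the activator of phosphofructokinase, rose in ZF (10.8, 12.3, 8.05 and 11.8 in ZL against 20.9, 18.4, 20.4 and 18.8 in ZF; log2 fold change 0.83 ± 0.11 SE, adjusted p from limma 0.00051) and was also higher in ZF-SGLT2i than in ZL, at 18.4, 18.7, 20.2 and 16.3 (0.74 ± 0.11). Pgm1, phosphoglucomutase, was lower than in ZL both for ZF (-0.50 ± 0.09, adjusted p from limma 0.0027) and for ZF-SGLT2i (-0.35, a call lost with the replicate block), and Galm, which interconverts the ring forms of glucose, was lower in ZF-SGLT2i than in ZL (-0.43). Neither Pfkl nor Pfkp was called beside the difference in Pfkfb3, and neither was Pfkm, which encodes the muscle-type chain. The mean value of Pfkm over all rats was 111.9, beside 75.4 for Pfkl and 35.2 for Pfkp. Its log2 fold changes were 0.02, -0.07 and -0.05 in the 3 comparisons in turn.

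Past pyruvate, 11, 1 and 13 of 19 listed genes for pyruvate and lactate handling were called in the 3 comparisons in turn. Of these, 1 was higher and 10 lower in ZF than in ZL, 1 higher and 0 lower with treatment among obese rats, and 3 higher and 10 lower in treated obese than in lean rats, and the median log2 fold changes of all 19 were -0.30, -0.03 and -0.27. The shares of all genes tested called higher and lower were 8.19% and 10.6%, 1.39% and 1.75%, and 12.4% and 15% in the same order. The pyruvate dehydrogenase genes Pdha1, Pdhb, Dlat and Dld were lower in ZF than in ZL by log2 fold changes of -0.44, -0.39, -0.35 and -0.30, and the mitochondrial pyruvate carrier genes Mpc1 and Mpc2 by -0.42 and -0.51. Pdp2, a phosphatase that activates the dehydrogenase, was at -0.75 and Ldhd, the D-lactate dehydrogenase, at -0.61. The calls of Dld, Dlat, Mpc1 and Mpc2 in ZF against ZL were lost under at least 1 alternative.

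The lactate carriers moved in different directions. Slc16a1, which carries lactate and other monocarboxylates, read 98.5, 119, 132 and 45.1 in ZL rats, 17.2, 19.0, 40.5 and 12.1 in ZF rats, and 10.4, 11.5, 12.4 and 8.03 in ZF-SGLT2i. All obese rats lay below all lean rats, with log2 fold changes of -2.13 ± 0.34 (SE) in ZF and -3.01 ± 0.34 in ZF-SGLT2i against ZL (adjusted p from limma 0.0013 and 5.6e-05), and -0.88 ± 0.34 between the obese groups, which was not called. Slc16a3, the carrier typical of glycolytic cells, rose from a mean of 3.12 to 6.22 in ZF (0.81 ± 0.17, adjusted p from limma 0.0054), and Slc16a7 was lower in ZF at -0.38. Pdk4, a kinase that switches off pyruvate dehydrogenase, read 6.14, 6.41, 7.26 and 4.81 in ZF and 15.3, 23.3, 10.7 and 20.4 in ZF-SGLT2i. All treated rats were above all ZF rats for Pdk4 (log2 fold change 1.32 ± 0.20 SE, adjusted p from limma 0.0032). Against ZL, Pdk4 and Pdk1 were higher in ZF-SGLT2i at 1.05 and 0.46, and Pdk3 was lower at -0.27. The calls of Slc16a3 and Slc16a7 in ZF, of Pdk4 between the obese groups and of Pdk1 against ZL were lost under the replicate block, and that of Pdk3 under 15 of 22 alternatives.

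**Figure D5:**
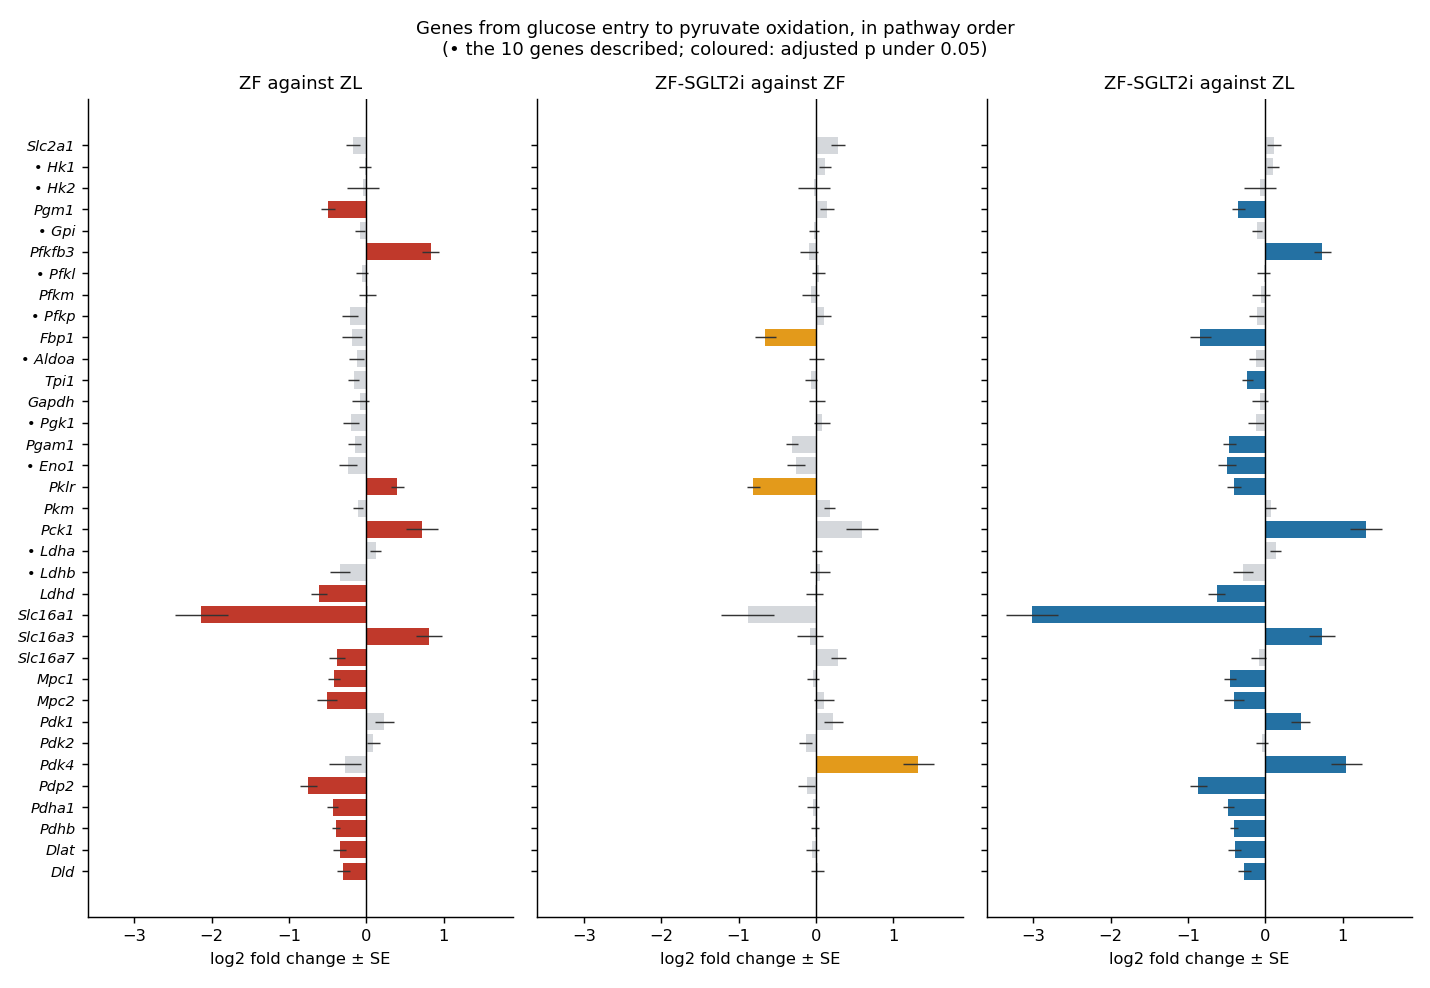
The log2 fold change with its limma standard error for genes from glucose entry to pyruvate oxidation in pathway order, 1 panel per comparison; dots mark the 10 genes described and coloured bars had an adjusted p under 0.05. Of the 10 genes only Eno1 is coloured, in ZF-SGLT2i against ZL, while Pklr is coloured in all 3 comparisons and Slc16a1 reaches -2.13 and -3.01 against ZL.

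Markers of cortex cells moved with the groups as well. The tissue carried the markers of cortex: 13 of 14 proximal tubule markers were in the table, with Lrp2, the receptor megalin, as the most abundant. Their summed value was 29429, 27781, 29933 and 26323 in ZL rats, 21474, 21685, 26005 and 19541 in ZF rats, and 21745, 19510, 20502 and 16704 in ZF-SGLT2i. Of the 13, 1 was called higher (Slc22a6, an organic anion transporter) and 5 lower in ZF against ZL, beside 8.19% and 10.6% of all genes tested. With treatment 1 was called higher (Slc27a2, a fatty acid transporter) and 1 lower against ZF, and 0 higher and 5 lower against ZL, beside 1.39% and 1.75%, and 12.4% and 15%, of all genes. Within its group the sum was lowest in ZL rat 4, highest in ZF rat 4 and lowest in ZF-SGLT2i rat 6, and those rats were also the lowest, the highest and the lowest of their group for 6, 6 and 8 of the 10 genes. The other ends did not match: the lowest ZF sum was that of rat 5, where rat 2 was lowest for 7 genes, and the highest ZF-SGLT2i sum was that of rat 2, where rat 4 was highest for 6. Injured tubule markers, led in abundance by Spp1, had a median log2 fold change of 0.83 in ZF against ZL, with 7 of 10 called higher (8.19% of all genes tested), and summed to 853 ± 65.1, 1765 ± 680.3 and 1499 ± 335 (SD, n = 4) in lean, obese and treated rats. Collecting duct markers, led by Aqp2, had a median of 0.69 in ZF-SGLT2i against ZL with 6 of 9 called higher (12.4% of all genes tested), and summed to 1993 ± 393, 2194 ± 365 and 2959 ± 165. The part of these shifts in Eno1, Ldhb and the Ldha to Ldhb ratio was not tested.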

How the data were processed

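RNA from the renal cortex of 12 rats was sequenced after rRNA depletion as 150 bp paired-end reads. The authors counted reads on genes, scaled the counts and deposited a signal per gene and rat. The submitters' processing notes name Trimmomatic 0.38, RSEM 1.3.0, Bowtie2, edgeR and build rn6, and the annotation is not given in the sources used here. Within a rat every deposited signal was a multiple of 1 constant, and division by it gave whole reads for all values, to within 0.001 reads. They equalled CPM with the TMM factors of edgeR 4.0.16, so reads could be recovered and library size was already corrected. Counting error is widest for low genes such as Hk2. Between 7.25% and 15.2% of the reads of a rat were on Rn28s and Rn45s.

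The groups were compared on log2(value + 1) with limma 3.58.1 (R 4.3.3), with the 12 rats in a single fit, the eBayes trend option, two-sided p-values and Benjamini-Hochberg adjustment, for the 11633 genes that reached a value of 1 in 4 or more rats. Fold changes are on the log2(value + 1) scale, which understates changes of low genes. Genes and ratios were also compared by exact permutation over the 70 assignments of 4 rats against 4. Alternatives were a pseudocount of 0.1, no filter, a mean of at least 10, median-of-ratios and quantile scaling, fits of only the groups compared, a replicate block, array quality weights, edgeR and DESeq2 1.42.0 on recovered reads, and leaving out each rat, 22 in all. limma, edgeR and DESeq2 were tested on counts drawn with known changes, but the outcome is not given here and no result rests on it. All 10 genes were named. From lists of pathway genes those called were named, together with Gapdh, Pkm, Tpi1 and Pfkm, and the marker lists gave counts. Some listed genes are not reported here by name. The 10 genes and the lists were chosen with earlier results of these data known. Promoter sequences came from RefSeq in GRCr8, so coordinates are not those of rn6. Values of similar genes can share reads, which could not be separated here.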

Additional observations from a re-analysis of the deposited data

Results flagged for a closer look

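In 168 groups of 4 rats, for the 10 glycolytic genes, the named pathway genes other than Pfkm and the 3 isozyme ratios, 9 had 1 rat apart from the other 3 by Dixon's 95% critical value for 4 samples, and chance gives about 8.4. Of the 10 genes this held for Pfkl, at 81.4 in ZF-SGLT2i rat 3 where the other treated rats were at 72.8 to 74.2. Gapdh was at 1790.0 in ZL rat 4, beside 2190.0 to 2241 in the other lean rats, and Prkaa2 was at 150.8 in the same rat, beside 159.6 to 160.8. ZF rat 4 was high for Pdp2 (109.1, others 81.4 to 81.5), Fbp1 (767.6, others 490.1 to 515.5) and Ndrg1 (1769, others 1166 to 1182). ZF-SGLT2i rat 4 was high for Pkm (243.2, others 227.9 to 230.3) and Mpc2 (25.7, others 20.6 to 21.1), and ZF-SGLT2i rat 2 was high for Mlx (46.3, others 44.4 to 44.6). What sets these rats apart was not tested.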

How the results depend on the processing

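Of 657 alternative values for the 10 genes, 612 kept their direction and their side of the threshold, 9 passed it, 1 lost it and 35 changed sign, and of 1648 for the other genes 1479, 2, 160 and 7 did so. Eno1 in ZF-SGLT2i against ZL lay between -0.58 and -0.29. With the rat number as a replicate block, 807, 223 and 1502 genes were called in the 3 comparisons (ZF with ZL, ZF-SGLT2i with ZF, ZF-SGLT2i with ZL), where the fits without it called 2185, 366 and 3184. Eno1 then missed the threshold (-0.39, adjusted p 0.11 by limma), leaving 0 members called lower in ZF-SGLT2i against ZL. Of the 11633 genes tested, 1502 were called in that fit, 714 of them higher. The signs changed for Hk2 (0.0125) and Pfkl (0.031) in ZF against ZL and for Pfkl (0.033) and Gapdh (0.0047) in ZF-SGLT2i against ZL. Same-numbered rats correlated at -0.376 to 0.253 and rats of different number at -0.402 to 0.455. The labels give the numbers no meaning, so whether they pair the rats is not known. In the block fit ZL rat 1, ZF rat 5 and ZF-SGLT2i rat 6 did not enter the differences, since no other group holds their number. A call lost there can therefore come from fewer rats. Array weights and DESeq2 called 689 and 641 genes in ZF-SGLT2i against ZF and each called 1 member lower (Ldhb) in ZF against ZL, beside 13.8% and 10.9% of all genes called lower, and array weights called 2 members lower (Eno1 and Ldhb) in ZF-SGLT2i against ZL, beside 18.8%.

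Quantile normalization moved the share of calls that were higher in ZF against ZL from 43.6% to 53.9% and the members' median from -0.10 to -0.01, and from -0.11 to 0.03 in ZF-SGLT2i against ZL. It called 1 member higher (Ldha) in each of these, beside 9.48% and 13.8% of all genes. Signs changed in ZF against ZL for Hk1 (0.064), Gpi (0.089), Aldoa (0.11), Tpi1 (0.0047) and Gapdh (0.14), between the obese groups for Ldha (-0.0061) and in ZF-SGLT2i against ZL for Gpi (0.044), Pfkl (0.015), Aldoa (0.13), Pgk1 (0.054) and Gapdh (0.25). In ZF-SGLT2i against ZF, Hk2 was at 0.047 with array weights and Aldoa at -0.0072 with edgeR and -0.0020 with DESeq2. Hk2 gave no value under a mean of at least 10. The cause of these changes was not tested.

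Leaving out each rat in turn gave 1389 to 2453 genes called in ZF against ZL and 176 to 570.0 between the obese groups, and 0 to 3 members lower in ZF and 1 to 2 lower in ZF-SGLT2i than in ZL. Both of the highest counts came without ZL rat 4, where 8.57% of all genes tested were called lower in ZF. In ZF-SGLT2i against ZL the fit without that rat called 2697 of 11633 genes, 1211 of them higher. In ZF against ZL, leaving out each rat gave Hk1 -0.071 to 0.048 and Hk2 -0.23 to 0.091. In ZF-SGLT2i against ZF it gave Hk2 -0.16 to 0.16, Gpi -0.066 to 0.0099, Pfkl -0.015 to 0.069, Aldoa -0.044 to 0.045, Ldha -0.0235 to 0.053, Ldhb -0.027 to 0.11 and Gapdh -0.045 to 0.067. In ZF-SGLT2i against ZL it gave Hk2 -0.21 to 0.053 and Pfkl -0.083 to 0.0275. The log2 ratio of Hk1 to Hk2 was -0.14 to 0.22 in ZF against ZL, and between the obese groups the ratios were -0.079 to 0.0070 for Ldha to Ldhb, -0.052 to 0.31 for Hk1 to Hk2 and -0.16 to 0.0025 for Pfkl to Pfkp. At 37 to 94 reads, the counting error of Hk2 was 10.3% to 16.4%, and its SD between rats, as a share of the group mean, was 26.1% for lean, 36.1% for obese and 14.4% for treated rats.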

Other observations

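Glucose production and side branches were compared in the same way. Called in the 3 comparisons in turn were 1, 1 and 3 of 7 gluconeogenesis genes, and 3, 0 and 6 of 17 branch genes. Of all genes tested, 8.19%, 1.39% and 12.4% were called higher and 10.6%, 1.75% and 15% lower. The genes are described singly, and no list was tested as a whole. Of 7 tested gluconeogenesis genes, Pck1, the entry enzyme, rose in ZF (0.71 ± 0.21 SE, adjusted p from limma 0.029) and stood at 1.304 in ZF-SGLT2i against ZL, and Fbp1, which opposes phosphofructokinase, was lower in ZF-SGLT2i than in ZF at -0.65 ± 0.13 (adjusted p from limma 0.019) and than in ZL at -0.84. Pck2 was higher in ZF-SGLT2i than in ZL at 0.29. Of 17 genes of the pentose phosphate, glycogen and other branches, Pygb was higher in ZF than in ZL at 0.29, and Pygl and Gbe1 were lower at -0.33 and -0.43. In ZF-SGLT2i against ZL the called genes were Pygb at 0.56, Tkt at 0.25, Gpd1 at 0.21, Taldo1 at -0.33, Pygl at -0.30 and Gbe1 at -0.33. Of 22 alternatives, Pck1, Pygb and Pygl lost their calls in ZF against ZL under 4, 8 and 6, Fbp1 lost its call in ZF-SGLT2i against ZF under 3, and Tkt, Pygl, Taldo1 and Gpd1 lost theirs in ZF-SGLT2i against ZL under 6, 6, 5 and 3.

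Regulators known to act on glycolytic genes were listed as 20 genes, of which 17 were tested. Called in the 3 comparisons in turn were 6, 0 and 8 of these, not all of them named here. Of 9 hypoxia-responsive genes outside glycolysis 2, 0 and 3 were called. Of all genes tested, 8.19%, 1.39% and 12.4% were called higher and 10.6%, 1.75% and 15% lower. In ZF against ZL, Hif1a, a hypoxia-inducible factor subunit, was at 0.18 and Egln3, a prolyl hydroxylase that marks it for decay, at 0.69, and Vhl, Mlx and Srebf1 were lower at -0.22, -0.25 and -0.51. No regulator was called in ZF-SGLT2i against ZF by limma. In ZF-SGLT2i against ZL, Hif1a at 0.19, Epas1 at 0.34 and Prkaa1 at 0.25 were higher, and Vhl, Mlx, Srebf1, Hnf4a and Prkaa2 were lower, at -0.32, -0.18, -0.65, -0.25 and -0.54. Hypoxia-responsive genes outside glycolysis did not move in a single direction: of 9 tested, Adm was higher at 0.54 and Ndrg1 lower at -1.13 in ZF, and in ZF-SGLT2i against ZL Adm was at 0.39, Ndrg1 at -1.13 and P4ha1 at -0.74. Of 22 alternatives, Hif1a, Vhl and Egln3 lost their calls in ZF against ZL under 10, 9 and 5, and Mlx, Srebf1 and Adm under the replicate block. In ZF-SGLT2i against ZL, Mlx, Prkaa1, Hif1a, Hnf4a and Adm lost theirs under 12, 8, 6, 5 and 5, with Hnf4a at -0.02 after quantile normalization, and Epas1 and Srebf1 under the replicate block.

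Other cell types were checked with fixed markers in the same way. Of all genes tested, the 3 comparisons in turn called 8.19%, 1.39% and 12.4% higher and 10.6%, 1.75% and 15% lower. Podocyte markers, led by Podxl, had medians of 0.33, 0.03 and 0.42. Of these 8, 5, 0 and 5 were called higher and 0, 0 and 0 lower. They summed to 1464 ± 190.1, 1903 ± 196 and 1951 ± 215 in the 3 groups. Fibroblast and smooth muscle markers, led by Pdgfra, had medians of 0.40, -0.75 and -0.34. Of these 9, 2, 0 and 0 were called higher and 0, 5 and 3 lower. Thick limb and distal tubule markers, led by Umod, summed to 7326 ± 436, 7556 ± 570 and 7347 ± 437, and of 7 tested 0, 0 and 1 were called higher and 1, 1 and 2 lower. Inner medulla markers, led by Aqp4, had 1, 0 and 2 of 4 tested called higher and 1, 0 and 1 lower. Endothelial markers, led by Kdr, had 1, 0 and 2 of 9 called, and macrophage markers, led by Lyz2, 1, 0 and 1 of 9, all of them higher. Blood markers, led by Slc4a1, which the collecting duct list also holds, had 0 of 4 called in any comparison by limma, and adipocyte markers, led by Adipoq, had 1, 0 and 1 of 2 called, each lower. Skeletal muscle markers were close to 0, with 4 of 7 in the table, none tested and sums of 0.302 to 2.06 per rat.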
